A study of Mus musculus with 103 samples.

Results

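The nuclear genes of the mitochondrial respiratory chain were followed across resting mouse embryonic fibroblasts that had lost Ctcf, Smc3, Wapl, or Ctcf and Wapl together. Members were all rows whose symbol begins with Nduf, Uqcr, Atp5, Sdha, Sdhb, Sdhc or Sdhd, or with Cox followed by 4, 5, 6, 7 or 8. They numbered 94 of the 23339 genes of the RNA-seq table, of which 36 belong to complex I, 4 to complex II, 8 to complex III, 20 to complex IV and 15 to complex V. Another 9 are assembly factors, and 2 (Atp5s and Atp5sl) carry the prefix but are kept apart because they are not core subunits. Ndufa4 and Ndufa4l2 were counted with complex IV, to which Ndufa4 is now assigned.

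The chain passes electrons from NADH (complex I) or succinate (complex II) through complex III to oxygen at complex IV, and complex V, the ATP synthase, uses the resulting proton gradient to make ATP. Most subunits are small proteins made from short nuclear mRNAs and imported into the organelle, and assembly factors help put the complexes together without remaining in them. Several complex IV subunits exist as isoforms known from particular tissues: Cox6a2, Cox7a1 and Cox8b from heart and skeletal muscle, Cox6b2 from testis, and Cox4i2 and Ndufa4l2 as genes raised at low oxygen.

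The study asked how transcription, the insulator protein CTCF and the cohesin release factor WAPL place cohesin on chromosomes, and its poly(A) RNA-seq and nascent-RNA tables are used here. Fibroblasts came from C57BL/6 embryos at E13.5 and rested for 10 days, so all groups share strain, age and quiescence. Adenoviral Cre (4 h) was given to wild-type cells (2 libraries with Cre and 2 without), to Ctcf(fl/fl) cells (2 and 2) and to Ctcf(fl/fl) Wapl(fl/fl) cells (1 and 2). 4-hydroxytamoxifen (2 to 3 days) was given to cells carrying Rosa26(CreER/+) alone (2 libraries with the drug and 2 without), with Smc3(fl/fl) (4 and 4) or with Wapl(fl/-) (2 and 2), so the untreated Wapl cells already lacked one allele. Nascent RNA was measured in Ctcf(fl/fl) Wapl(fl/fl) cells without Cre (2 libraries, pooled), after Adeno-Cre (2, pooled), after Adeno-Cre followed by 3.5 h of the elongation inhibitor DRB (1), and after such DRB treatment and 1 day of washout (1). Single nascent-RNA libraries of wild-type cells with and without Adeno-Cre, and of Cre-ER cells with and without 4-hydroxytamoxifen, were also made. A wild-type column of nascent RNA does not name its libraries. Other libraries come from numbered clones, which treated and untreated libraries share, but clone 3 of the Ctcf and Wapl floxed cells has no treated library in the main table. The DRB and washout libraries carry no clone number, so clone and drug cannot be told apart there. The promoter of the viral Cre is not given in the sources used here. These are bulk libraries, in which fewer cells of a kind and less RNA per cell cannot be told apart.

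Reads in genes ran from 8.5 M to 41.1 M per library. Ctcf had 4.23 and 4.04 RPKM (reads per kilobase of transcript, scaled to library depth) in Ctcf-deleted libraries, against 13.2 and 11.6 RPKM untreated, and 3.76 RPKM with both genes deleted, against 9.26 and 12.5 RPKM. Wapl (listed as Wapal) had 0.780 and 0.914 RPKM in Wapl-deleted libraries, against 1.80 and 1.48 RPKM untreated. Smc3 mRNA stood at 10.9 to 13.2 RPKM in libraries with the Smc3-deleted label, against 7.62 to 10.5 RPKM untreated, so these libraries are called by their label. The 8 fibroblast markers were present in every group, with summed levels of 6618 to 17060 RPKM. Macrophage markers were present too and varied between libraries of one group, for example from 38.8 to 1499 RPKM in untreated Smc3 cells. Gapdh, which every cell uses, was at 0 to 1.15 RPKM in these tables beside Actb at 810 to 2776 RPKM, so a low value of a gene with near-identical copies is uncertain here.

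The windows below, from 250 bases before to 50 bases after the annotated start, belong to the members on which the results turn. Ndufaf3 and Ndufaf4 are complex I assembly factors and Ndufb7 is a complex I subunit, all lower without Ctcf in at least one fit. Ndufaf4 was also lower with Wapl deleted and Ctcf present, at 0.586 and 0.838 RPKM, against 1.001 and 1.398 RPKM untreated. These values rest on 46 and 51 reads, against 68 and 84 reads. Cox6b2 was higher in several deletions. Sequences are RefSeq's on GRCm38.p6, read 5′ to 3′ on the gene's strand, whereas the study's processing notes name mm9. Ndufaf3 lies at chr9:108567387-108567686 (minus strand), Ndufaf4 at chr4:24897833-24898132 (plus), Ndufb7 at chr8:83566508-83566807 (plus) and Cox6b2 at chr7:4753045-4753344 (minus). Capitals mark matches on either strand to the motifs searched, which are a GC box in Ndufaf3 and Cox6b2, a CTCF core and an ETS match in Ndufb7, and, in order, an NRF1 match, a pair of overlapping GC boxes and a CTCF core in Ndufaf4.
Ndufaf3: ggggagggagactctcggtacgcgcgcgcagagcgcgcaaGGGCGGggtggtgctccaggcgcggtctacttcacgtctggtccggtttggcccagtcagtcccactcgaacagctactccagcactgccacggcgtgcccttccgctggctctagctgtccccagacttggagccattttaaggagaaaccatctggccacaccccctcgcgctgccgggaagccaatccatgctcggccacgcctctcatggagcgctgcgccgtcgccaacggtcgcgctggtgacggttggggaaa
Ndufaf4: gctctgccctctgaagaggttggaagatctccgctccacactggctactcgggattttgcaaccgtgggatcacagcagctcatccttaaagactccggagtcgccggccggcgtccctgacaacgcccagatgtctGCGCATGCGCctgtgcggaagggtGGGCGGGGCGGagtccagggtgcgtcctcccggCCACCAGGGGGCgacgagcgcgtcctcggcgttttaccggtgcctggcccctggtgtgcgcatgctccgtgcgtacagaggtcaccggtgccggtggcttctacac
Ndufb7: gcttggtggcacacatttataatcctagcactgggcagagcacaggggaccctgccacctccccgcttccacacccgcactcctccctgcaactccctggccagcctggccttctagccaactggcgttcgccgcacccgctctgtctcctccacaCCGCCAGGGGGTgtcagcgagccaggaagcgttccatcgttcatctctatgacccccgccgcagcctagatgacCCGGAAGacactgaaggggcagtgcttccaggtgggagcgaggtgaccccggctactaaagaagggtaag
Cox6b2: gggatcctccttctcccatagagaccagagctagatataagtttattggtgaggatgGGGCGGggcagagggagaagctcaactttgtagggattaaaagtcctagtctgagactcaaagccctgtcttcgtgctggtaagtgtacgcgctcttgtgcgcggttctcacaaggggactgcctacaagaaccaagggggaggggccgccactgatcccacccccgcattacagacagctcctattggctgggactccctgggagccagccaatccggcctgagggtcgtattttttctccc

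RefSeq windows were found for 78 member genes (84 windows). The CTCF core occurred in 3 of the 84, those of Ndufaf4, Ndufb7 and Ndufv1, a share of 3.57% against 1.08% of all 32851 windows. The NRF1 motif was present in 23.8% of member windows, against 4.6% of all. The ETS motif CCGGAAG stood in 22.6%, against 8.86%, and YY1 (ATGGCGGC) in 11.9%, against 2.24%. The GC box GGGCGG was found in 44.0%, against 35.7%. The NRF1, ETS and YY1 letters are those of factors known to act at promoters of nuclear genes for mitochondrial proteins. A match is only a match of letters in this window, and the Ndufaf3 window held none of the CTCF core.

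Levels are given over the 14 untreated libraries. In complex I, Ndufa3 was highest, with a mean of 395 RPKM and a range of 225.5 to 528.5 RPKM. Sdhc, a membrane anchor of complex II, averaged 127 RPKM, with a range of 102 to 160 RPKM, and Sdhd, the other anchor, was lowest in that complex at 56.7 RPKM. Complex III was led by Uqcrq at 334 RPKM (range 248 to 455 RPKM) and complex V by Atp5b, the catalytic beta subunit, at 362 RPKM (317 to 424 RPKM). Among assembly factors, Ndufaf2 was highest at 24.1 RPKM and Ndufaf4 lowest at 1.34 RPKM. Median levels of the tested members and of all 12604 genes tested (those reaching 1 RPKM in 2 or more libraries) were 58.5 and 7.89 RPKM. These are per-length values. Of the 94 members, 90 were tested, and Cox4i2, Cox7b2, Cox8c and Ndufs5 were too low.

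The widely expressed isoforms of complex IV were the abundant ones. Cox6a1, the highest member of all, averaged 520 RPKM (range 373 to 842 RPKM) over the 14 untreated libraries, while its muscle isoform Cox6a2 averaged 8.53 RPKM (1.47 to 14.5 RPKM). Cox4i1 averaged 433 RPKM, and Cox4i2 averaged 0.374 RPKM. Cox8a averaged 371 RPKM and Cox8b 0.771 RPKM, while Cox8c was listed at 0 in all 14. Cox7a2 had 93.5 RPKM, the related Cox7a2l 35.0 RPKM and Cox7a1 2.32 RPKM. Cox7b averaged 28.9 RPKM and Cox7b2 0.00752 RPKM. Cox6b2 was an exception among the tissue isoforms, at a mean of 35.8 RPKM (13.4 to 65.7 RPKM) beside Cox6b1 at 240 RPKM. Ndufa4 averaged 191 RPKM and Ndufa4l2 5.05 RPKM. Of 13 striated muscle markers, 8 were under 1 RPKM in all untreated wild-type libraries. Their sum was still 157 to 675 RPKM there, most of it Des, at 126 and 637 RPKM. All 5 germ cell markers were under 1 RPKM in every library. Ndufs5, Cox7c, Ndufab1, Atp5l, Atp5g1, Atp5g2, Uqcrb and Ndufb4 were each under 1 RPKM in at least 1 library, although they encode widely expressed proteins. Cox7c, for example, lay between 0 and 0.615 RPKM in Smc3 and Wapl cells, against 5.48 to 13.03 RPKM in the Ctcf and Wapl floxed cells, and Atp5g2 between 0 and 0.177 RPKM, against 47.4 to 120 RPKM. Ndufb4 lay between 0.590 and 7.31 RPKM in Smc3 and Wapl cells, against 6.97 to 58.75 RPKM in wild-type, Cre-ER and Ctcf cells. Atp5g3, which encodes the same mature c-ring subunit, averaged 209 RPKM. Reads of genes with near-identical copies may have been split or dropped in counting, which was not tested, so these 8 members are uncertain.

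**Figure D1:**
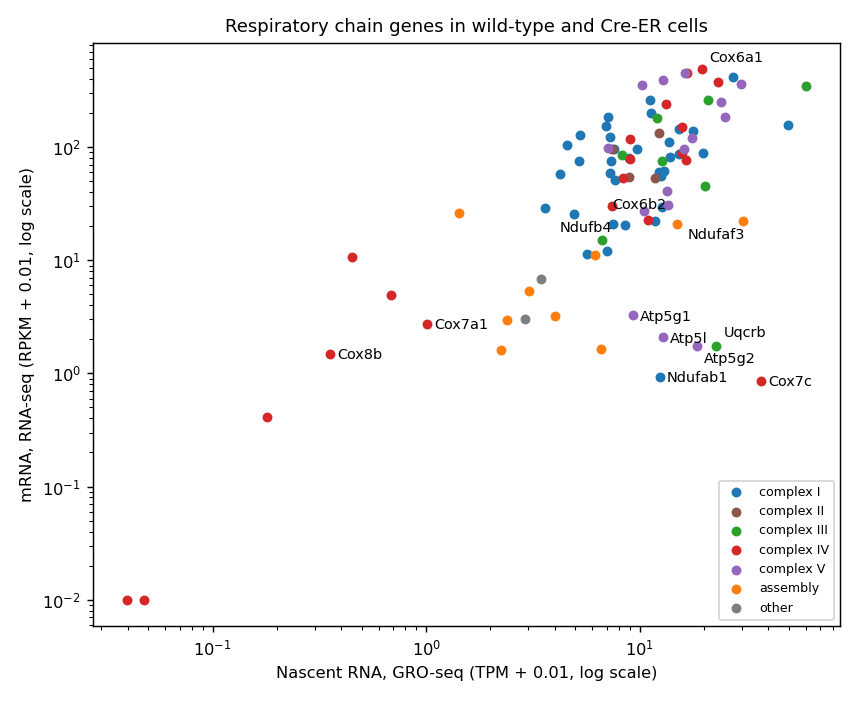
For 93 members, the authors' wild-type RPKM is plotted against their wild-type GRO-seq TPM, both with 0.01 added and on log axes. The RPKM equals the mean of the 4 untreated wild-type and Cre-ER libraries. The libraries behind the TPM are not named, so whether all were untreated cannot be told. Cox7c lies at 36.8 TPM with a low mRNA value, and Uqcrb, Atp5g2, Atp5l, Atp5g1 and Ndufab1 stand beside it under the main cloud.

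Transcript length sets this family apart from most genes. Lengths could be recovered for 91 members, with a median of 735 bases and a range of 288 to 3629 bases, against a median of 2792 bases over all genes tested. Under 1000 bases were 64.8% of these members (59 of 91), against 8.7% of all genes tested. Complex IV was shortest in this respect, with 17 of 18 under 1000 bases, then complex V with 11 of 15, complex I with 24 of 35 and complex III with 5 of 8. None of the 4 complex II genes was under 1000 bases, and 2 of the 9 assembly factors were.

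Wild-type cells given Adeno-Cre carry no floxed gene, and their comparison measures the virus and Cre together, without a floxed target. Adeno-Cre came with higher respiratory chain mRNA: 11 of 90 members rose and none fell, 12.2% of them (limma, adjusted p under 0.05). Of all genes tested, 2.7% rose and 0.54% fell, 3.24% together. Short genes were called more often in general: 10.5% of all genes under 1000 bases, beside 10 of the 58 members of that length. From 1000 to 2000 bases the share of all genes was 4.71%, beside 1 of 23 members. The median log2 fold change was 0.55 over the members and 0.04 over all genes, and 85 of 90 lay above 0. Members took 1.29% and 1.07% of reads with Adeno-Cre, against 0.833% and 0.750% without it. With the clone fitted as a block, 62 members rose and none fell, while 15.8% of all genes rose and 7.24% fell, 23.0% together.

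In complex I, 5 of 35 members rose. Ndufb6, a membrane-arm subunit, had 257 and 191 RPKM with Adeno-Cre, against 111 and 105 RPKM without it (log2 fold change 1.03, SE 0.24, limma adjusted p = 0.0273). Ndufs7, an iron-sulfur subunit near the quinone site, had 167 and 126 RPKM, against 96.0 and 81.4 RPKM (0.71, adjusted p = 0.0163 by limma). Ndufb9, Ndufa8 and Ndufa7 were the others, at log2 fold changes of 0.60 to 0.85. Within each of these genes both Adeno-Cre libraries lay above both untreated ones. Among complex I members averaging at least 5 RPKM, Ndufa6 was lowest at 0.30, with 104 and 87.3 RPKM, against 82.8 and 72.6 RPKM (adjusted p = 0.645 by limma).

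Complex III had 3 of 8 members raised. Uqcrq, a small subunit that binds next to cytochrome b, had 1022 and 724 RPKM with Adeno-Cre, against 455 and 393 RPKM without it (log2 fold change 1.02, limma adjusted p = 0.0423). Uqcr11 rose by 0.80 and Uqcrfs1, the Rieske iron-sulfur protein, by 0.56. Uqcrc1, a core protein, was lowest (0.12, limma adjusted p = 0.683). In complex IV, Cox4i1 had 997 and 876 RPKM, against 531 and 447 RPKM (0.94, limma adjusted p = 0.0197). Cox5b rose by 0.82, and the muscle isoform Cox7a1 had 6.91 and 7.37 RPKM, against 3.63 and 2.00 RPKM (1.13, limma adjusted p = 0.0357). Summed striated muscle markers were 193 to 551 RPKM with Adeno-Cre, against 157 to 675 RPKM without it, and none of the 8 tested was called. No member of complex II or complex V passed, and the highest there among members averaging at least 5 RPKM were Sdhb at 0.60 (adjusted p = 0.143 by limma) and Atp5o at 0.68 (limma adjusted p = 0.228), which passed with the clone block at adjusted p = 0.00668 and 0.00312. Sdha, at -0.16, and Atp5a1, at 0.16, were lowest. No assembly factor passed, from Ndufaf2 at 0.73 to Ndufaf3 at 0.07 (limma).

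Short genes in general were higher with Adeno-Cre. The median log2 fold change over all genes was 0.45 under 1000 bases, 0.24 from 1000 to 2000 bases, 0.05 from 2000 to 4000 bases and -0.17 above that. The members of the first 3 classes had medians of 0.65, 0.40 and 0.18 (58, 23 and 9 genes), each above its class. Across all 12604 genes Spearman's rho between length and change was -0.54, a description over genes that share libraries. With the trend on length removed, none of the 90 members passed in limma (10 had an unadjusted p under 0.05, and the fit with voom weights was not run with it), and their median was 0.10 against -0.03 over all genes. With length removed and the clone as a block, 8 members rose and 1, Ndufaf3, fell. The share of all genes in that fit is not given here. The calls also rest on single libraries: none remained called without either untreated library or without Adeno-Cre replicate 1, and 10 members were called without Adeno-Cre replicate 2. Rescaling by the median of ratios left 2.

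**Figure D2:**
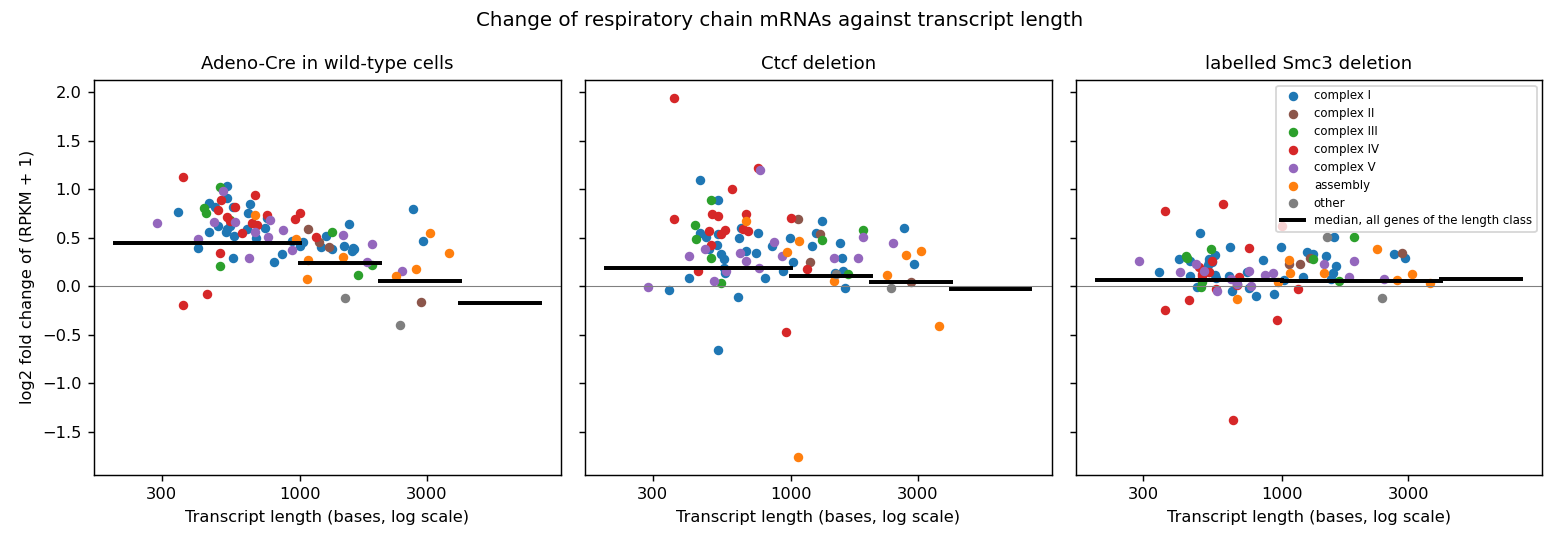
Log2 fold change of RPKM + 1 is plotted against transcript length (bases, log axis) for the tested members in 3 comparisons, with horizontal bars for the median of all genes in each length class. In wild-type cells with Adeno-Cre the bars step down from 0.45 to -0.17, and most short members lie above theirs, while in the labelled Smc3 deletion the bars stay at 0.05 to 0.08.

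Ctcf deletion lowered 1 member, the assembly factor Ndufaf3. It had 4.49 and 5.63 RPKM in Ctcf-deleted cells, against 19.2 and 19.6 RPKM in untreated Ctcf(fl/fl) cells. Both deleted libraries lay far under both untreated ones, with a log2 fold change of -1.76 (SE 0.20, limma adjusted p = 1.55e-05). These values rest on 178 and 130 reads, against 837 and 460 reads. Each library left out in turn gave a limma adjusted p of at most 0.000777, but with the spread taken from these 4 libraries alone it was 0.0631. Against the response to Adeno-Cre in wild-type cells (24.3 and 18.7 RPKM with it, 22.0 and 18.6 RPKM without it), the difference was -1.83 (SE 0.28, limma adjusted p = 0.00127, and 0.0505 with the spread from these 8 libraries alone), in which 1 of 90 members was called, against 1.46% of all genes (0.738% higher and 0.722% lower). With the clone block 1 member, Cox8b, was higher in that difference and 6 were lower, against 6.95% of all genes (3.42% higher and 3.53% lower). The lower ones were Ndufaf3, Ndufb7, Ndufa3, Ndufaf4, Ndufb10 and Atp5k.

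In the deletion itself 10 of 90 members rose and 1 fell, 12.2% against 7.66% of all genes tested (5.04% higher and 2.63% lower), and the median log2 fold change was 0.37 against 0.05. With the clone block 45 rose and 3 fell, against 25% of all genes (15.7% higher and 9.35% lower). Members also rose in wild-type cells given Adeno-Cre, and the median difference between both responses was -0.16 over members and -0.01 over all genes.

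In complex V, 3 of 15 rose. Atp5o, a stalk subunit also called OSCP, had 178 and 234 RPKM in Ctcf-deleted cells, against 85.4 and 91.0 RPKM (1.203, limma adjusted p = 0.0161). Its difference from the wild-type response was 0.52 (adjusted p = 0.881 by limma). Atp5b and Atp5a1, the catalytic-head subunits, rose by 0.51 and 0.45. In complex IV, 4 of 17 rose: Cox7a2 (145 and 248 RPKM, against 66.7 and 97.4 RPKM), Cox4i1, Cox6b2 and Cox8b. Cox8b, the muscle isoform of subunit 8, had 4.97 and 2.55 RPKM, against 0.270 and 0.126 RPKM (1.95, limma adjusted p = 0.00346), from 67 and 20 reads against 4 and 1 reads. Its call is lost without Adeno-Cre replicate 1 (limma adjusted p = 0.0609). Summed striated muscle markers were 119 to 329 RPKM in Ctcf-deleted cells, against 76.9 to 473 RPKM untreated, and of the 8 tested only Acta1, a skeletal actin, was called, higher. Adipocyte markers summed to 11.2 to 12.6 RPKM, against 17.9 to 20.7 RPKM, and endothelial ones to 44.7 to 51.2 RPKM, against 30.7 to 37.2 RPKM, with none called. The part of any of these in the member values was not tested.

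In complexes I and III the members that rose had also risen in wild-type cells with Adeno-Cre. Ndufb6 had 135 and 186 RPKM in Ctcf-deleted cells, against 72.7 and 98.6 RPKM (0.89, limma adjusted p = 0.0289), and Ndufs7 rose by 0.56. Uqcrq had 535 and 800 RPKM, against 277 and 446 RPKM (0.89, limma adjusted p = 0.0456). Ndufb4, one of the uncertain members, had the highest log2 fold change in complex I, 1.09, but its values spread widely (26.7 and 58.7 RPKM, against 15.5 and 21.0 RPKM, limma adjusted p = 0.351). No complex II gene passed, with Sdhb at 0.70 (adjusted p = 0.0583 by limma) and Sdha at 0.05.

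Ndufb7 had the lowest log2 fold change in complex I among members averaging at least 5 RPKM. It had 100.9 and 138.5 RPKM in Ctcf-deleted cells, against 162 and 216.5 RPKM untreated, and each deleted library lay below the untreated library of its clone (-0.66, limma adjusted p = 0.139, with the clone block 0.000997). In wild-type cells it had 329 and 292 RPKM with Adeno-Cre, against 206 and 206 RPKM without it. The difference of both responses was -1.25 (limma adjusted p = 0.124, with the clone block 0.000656). Ndufaf4 had 0.716 and 0.938 RPKM in Ctcf-deleted cells, against 1.26 and 1.60 RPKM untreated, called with the clone block alone. The Ctcf calls also rest on few libraries: 2 members were called without untreated replicate 1 and 3 without Adeno-Cre replicate 2.

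Deleting Ctcf and Wapl together gave 1 mRNA library in the main table (clone 4), so its spread is taken from the other groups. Ndufaf3 had 2.58 RPKM in it, against 22.6 and 15.5 RPKM untreated (-2.46, limma adjusted p = 2.36e-06, and 0.212 with the spread from these 3 libraries alone). Ndufb7 had 66.3 RPKM, against 158 and 136 RPKM (-1.13, limma adjusted p = 0.0203, and 0.107 without untreated replicate 1). In all 7 members rose and 2 fell, 10.0% against 15.8% of all genes tested (10.5% higher and 5.34% lower), and 23 rose and 2 fell with the clone block, against 22.8% (14.7% higher and 8.17% lower). Rises were seen in Atp5b (733 RPKM, against 424 and 422 RPKM, 0.79, limma adjusted p = 0.0016), Ndufs7, Ndufv1, Uqcr10, Ndufs1, Atp5a1 and Sdhaf2, a complex II assembly factor, at 0.44 to 0.96. Ndufs1, the largest complex I subunit, missed the threshold with the clone block (limma adjusted p = 0.0848). The member median was 0.37 beside 0.17 over all genes. Rescaling by the median of ratios moved the all-gene median to 0.00 and the member median to 0.14, and 2 members rose and 2 fell on that scale. The 8 fibroblast markers summed to 6618 RPKM in the deleted library, against 7418 to 12470 RPKM untreated, with 3 of 8 called lower. Striated muscle markers summed to 461 RPKM, against 126.5 to 179 RPKM, of which Acta1, the 1 of 8 tested that was called, had 376 RPKM, against 16.3 and 28.1 RPKM. Endothelial markers summed to 10.0 RPKM, against 17.9 to 39.25 RPKM, with 1 of 5 tested higher and 1 lower. The part of these cell types in the member values was not tested. Without untreated replicate 1, 4 members were called.

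Ndufaf3 sits between Impdh2 and Dalrd3 in the RefSeq gene order. None of its 4 nearest genes on either side was called lower in Ctcf-deleted or in Ctcf- and Wapl-deleted cells. Dalrd3, the next gene, was at -0.24 (adjusted p = 0.760 by limma) and -0.41 (adjusted p = 0.503 by limma), and Usp19 was higher with both deleted (0.73, limma adjusted p = 0.00521). Ndufaf3 was not called lower in the other deletions. It had 26.3 to 38.6 RPKM in libraries labelled Smc3-deleted, against 22.0 to 30.2 RPKM (0.27, adjusted p = 0.222 by limma, with the clone block 0.00766), and 23.1 and 25.4 RPKM in Wapl-deleted cells, against 20.1 and 25.4 RPKM (0.10, adjusted p = 0.921 by limma).

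**Figure D3:**
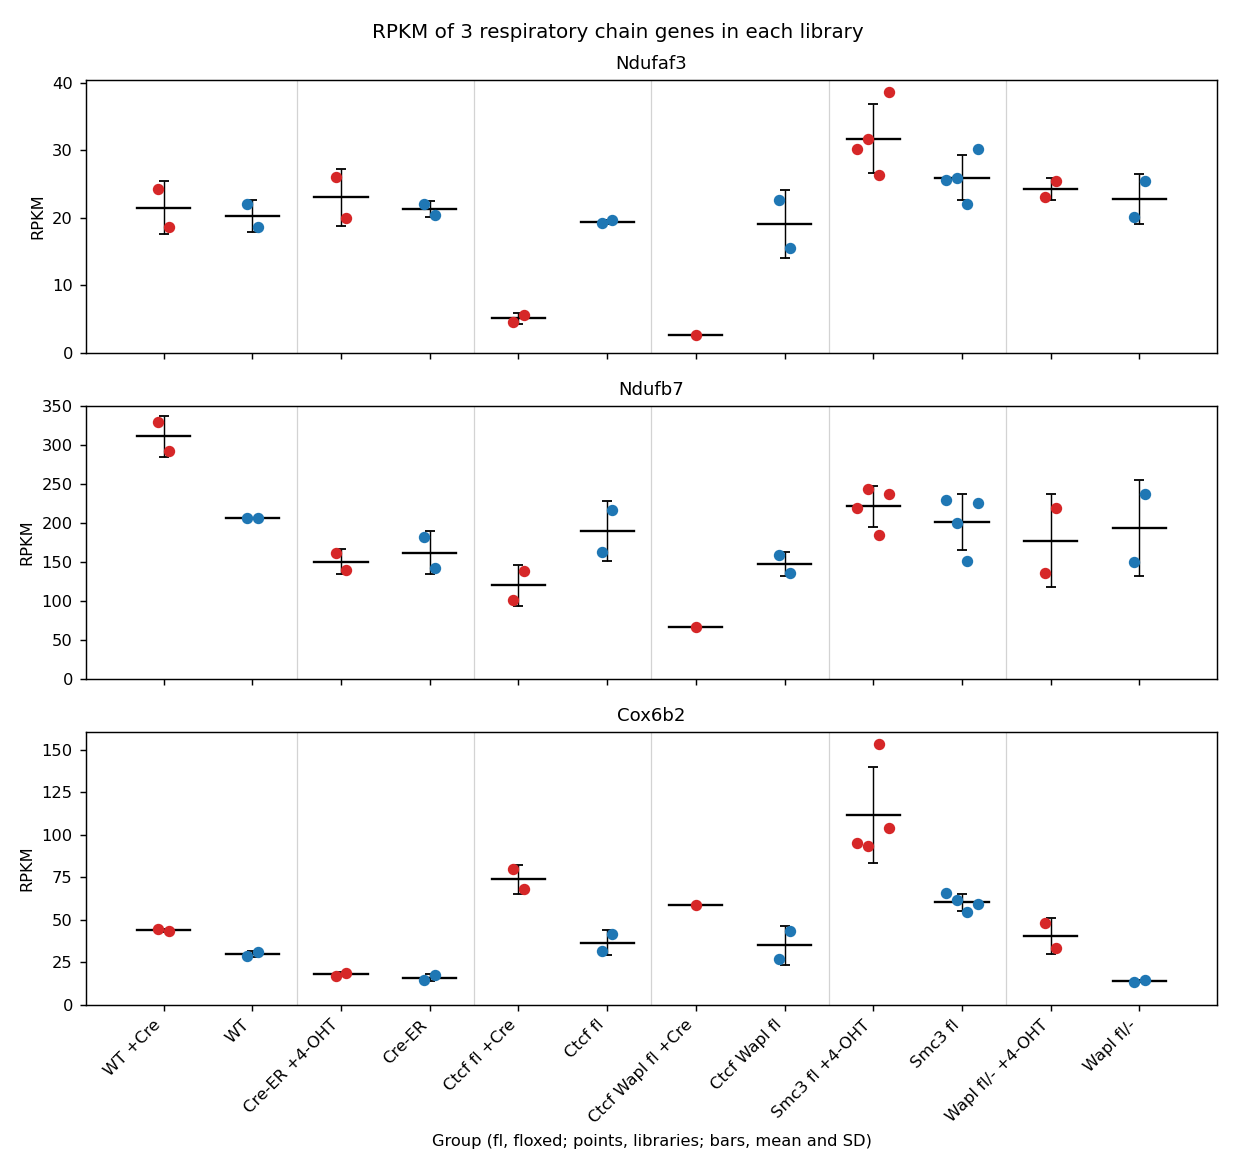
RPKM of Ndufaf3, Ndufb7 and Cox6b2 is shown for each library (points, red for treated and blue for untreated cells) with the group mean and SD. Ndufaf3 is at 2.58 to 5.63 RPKM in the 3 libraries without Ctcf and at 15.5 RPKM or more elsewhere. Ndufb7 is lowest at 66.3 RPKM without Ctcf and Wapl. The mean of Cox6b2 is higher with treatment in every genotype, with or without a floxed gene.

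Nuclear run-on sequencing (GRO-seq), which labels RNA being made, was deposited for Ctcf(fl/fl) Wapl(fl/fl) cells as columns that pool libraries or hold 1, so its values carry no test. The pooled libraries came from clones 1 and 2, and the mRNA libraries of this genotype from clones 3 and 4, so the assays did not share clones. Nascent Ndufaf3 was 1.74 TPM after Adeno-Cre, against 9.16 TPM untreated, lower as its mRNA was. Nascent Ndufaf4 was 1.95 TPM, against 9.72 TPM. Ndufaf4 mRNA was not clearly lower, at 1.147 RPKM in the library with both genes deleted (clone 4). That value lay below the untreated library of clone 4 (1.753 RPKM) and above that of clone 3 (1.1 RPKM). Nascent Ndufb7 was 5.82 TPM, against 5.95 TPM, so its lower mRNA had no counterpart here. Nascent Cox6b2 was 40.5 TPM, against 11.2 TPM. Uqcr10 of complex III was 34.1 TPM, against 14.7 TPM.

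Over the family, 14 of 90 members were at least 1.5-fold higher after Adeno-Cre and 32 at least 1.5-fold lower, against 8.71% and 47.6% of all 16320 genes with at least 1 TPM. The median log2 ratio was -0.15 for members and -0.55 for all genes, and over all genes under 1000 bases it was 0.00. By complex the medians ran from 0.63 in complex III to -0.76 among assembly factors.

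Under DRB the family stood higher in relative terms. Of the 90 members 58 were at least 1.5-fold higher under DRB than with Adeno-Cre alone, and 8 lower, against 15.6% and 46.2% of all genes. Their median log2 ratio was 1.16, against -0.51 over all genes and -0.05 over all genes under 1000 bases. Members under 1000 bases had a median of 1.5 and longer ones 0.48. Ndufa1 had 54.5 TPM under DRB, against 4.58 TPM without it, and Cox6a1 had 121 TPM, against 14.8 TPM. Ndufaf3 had 14.6 TPM under DRB, against 1.74 TPM without it. Ndufaf4 did not share in this, at 1.88 TPM, against 1.95 TPM, and Ndufb4, uncertain in mRNA, was lower, at 3.84 TPM, against 24.3 TPM. Values are shares of each column's total, so a ratio does not give the change in a gene's own signal.

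After washout 34 members were at least 1.5-fold above the Adeno-Cre column and 3 below it, 37.8% and 3.33% of them, against 12% and 15.3% of all genes and 32.1% and 19.5% of all genes under 1000 bases. The median was 0.45 for members, -0.02 for all genes and 0.22 for all genes under 1000 bases. Relative to DRB, 6 were higher and 49 lower after washout, against 35.0% and 10.4% of all genes. Ndufaf3 was at 8.37 TPM after washout. The DRB and washout columns sum to 100000, and the other columns, which pool libraries, to 200000, so single-library values were multiplied by 2.

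**Figure D4:**
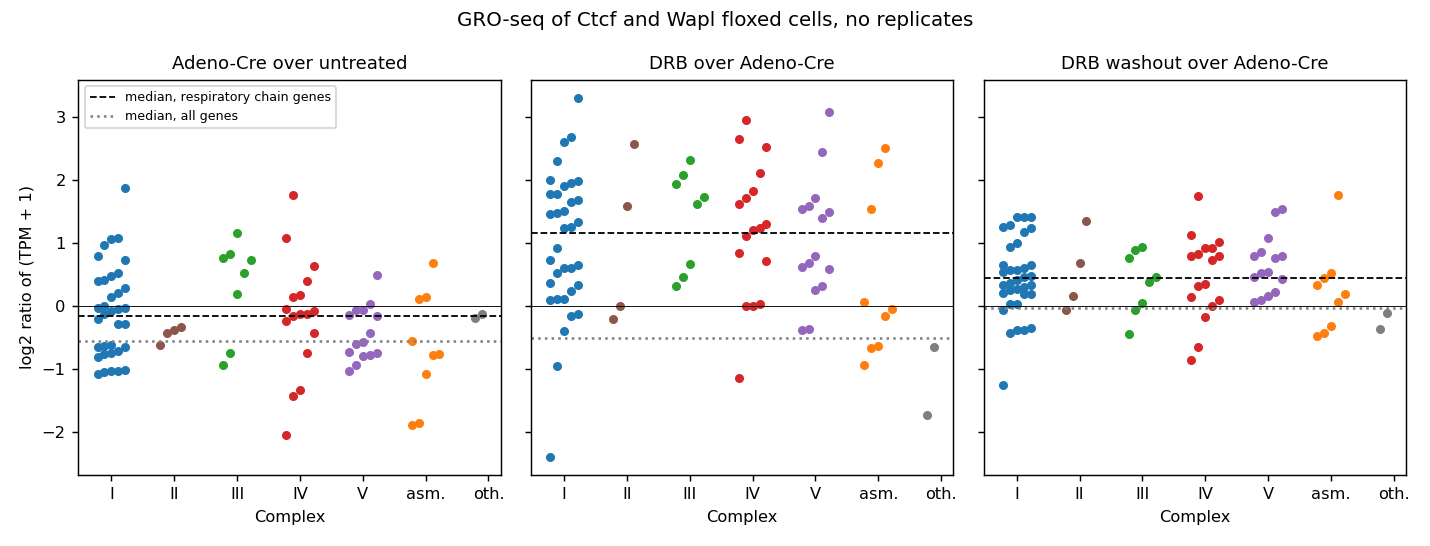
Log2 ratios of GRO-seq TPM + 1 are plotted for each member by complex (asm., assembly factors; oth., the 2 kept apart), with dashed lines for the member median and dotted lines for all genes. The dashed line is at 1.16 under DRB, above the dotted line at -0.51, and at 0.45 after washout, against -0.02.

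The libraries labelled Smc3-deleted had few calls among the members. Of the 90 members 4 rose and 1 fell, 5.56% against 15.0% of all genes tested (9.37% higher and 5.6% lower), and the median log2 fold change was 0.15 against 0.07. With the clone block 35 rose and 1 fell, against 36.6% (24.0% higher and 12.6% lower). All-gene medians by length class lay between 0.05 and 0.08.

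Cox6b2 led the rises, with 94.9, 93.5, 154 and 104 RPKM in the libraries labelled Smc3-deleted, against 65.7, 61.5, 54.2 and 59.1 RPKM untreated (0.85, SE 0.16, limma adjusted p = 0.0017). All 4 labelled libraries lay above all 4 untreated ones. Cox6a2, the muscle isoform of subunit 6a, fell to 4.27, 1.52, 1.55 and 3.11 RPKM, against 8.64, 6.32, 6.76 and 10.6 RPKM (-1.38, SE 0.34, limma adjusted p = 0.0102), again without overlap. Only these calls of Cox6b2 and Cox6a2 held in a fit on the compared groups alone (limma adjusted p = 0.019 and 0.0192). All calls named for the 5 comparisons and the Ctcf difference were fitted this way, but this comparison alone has 4 libraries a group. The others have 1 or 2, so the fit does not rank the calls by strength. Ndufv3, an accessory subunit of complex I, had 117, 106, 112 and 137 RPKM, against 107, 64.8, 78.2 and 83.6 RPKM (0.51, limma adjusted p = 0.00878). Ndufa1, an essential membrane-arm subunit, had 58.7, 56.2, 58.6 and 68.0 RPKM, against 47.5, 38.1, 30.6 and 49.9 RPKM (0.55, limma adjusted p = 0.0233). Atp5s rose by 0.51 (limma adjusted p = 0.0446). Leaving out 1 library moved Ndufa1 to adjusted p = 0.0636, 0.0741 and 0.0802 in limma (untreated replicates 2 and 3 and treated replicate 4), and Atp5s to between 0.0903 and 0.139 without any of 5 libraries. Without untreated replicate 2 or treated replicate 4, 3 members were called.

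By complex, the highest and lowest values that did not pass in limma were Sdha at 0.34 and Sdhb at 0.23 in complex II, Uqcrc2 at 0.51 and Uqcrq at -0.01 in complex III, and Atp5k at 0.26 and Atp5h at -0.05 in complex V. Ndufs3 was lowest in complex I among members averaging at least 5 RPKM, at -0.08. Striated muscle markers were higher in the same libraries, 5 of 8 tested, with sums of 69.7 to 185 RPKM, against 34.5 to 93.7 RPKM, while Cox6a2 was lower. Summed macrophage markers were 24.8 to 247 RPKM, against 38.8 to 1499 RPKM, with none of 10 called (7 lower with the clone block). Of 5 tested markers each, 3 adipocyte and 2 endothelial ones fell. The part of any cell type in these values was not tested.

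Cells with Cre-ER alone and 4-hydroxytamoxifen gave 0 calls among the 90 members and 0.0% of all genes in limma, and no member had an unadjusted p under 0.05, also with voom weights, against 41 of all genes in limma. The 41 genes are far fewer than the 0.05 share of 12604 that a calibrated test gives without any effect. The test thus looks conservative in these cells, and 0 calls do not show that the drug had no effect. Members ranged from -0.50 (Ndufb4, an uncertain one) to 0.49 (Cox6a2). Set against this, the Smc3 response gave 0 of 90 called in limma, against 1.23% of all genes (0.468% higher and 0.762% lower), with 4 members at an unadjusted p under 0.05 in limma and 3 with voom weights. With the clone block 2 were higher and 1 lower, against 10.7% (6.35% higher and 4.31% lower). Cox6a2 was the lower one, at -1.86 (limma adjusted p = 0.153, with the clone block 0.00759), and the Cox6b2 difference was 0.68 (limma adjusted p = 0.334).

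Wapl deletion gave 1 call. Cox6b2 rose and no member fell, 1.11% of members against 2.43% of all genes (1.5% higher and 0.928% lower), and the median log2 fold change was -0.05 against -0.01. It had 48.0 and 33.1 RPKM in Wapl-deleted cells, against 13.4 and 14.3 RPKM untreated (1.46, SE 0.23, limma adjusted p = 0.00215, and 0.0984 without treated replicate 1). Ndufa4l2 had 19.0 and 17.7 RPKM, against 7.70 and 3.72 RPKM (1.59, limma adjusted p = 0.0747, with the clone block 0.0283). Uqcrfs1 had 25.01 and 25.3 RPKM, against 39.4 and 35.4 RPKM (-0.55, limma adjusted p = 0.0599, with the clone block 0.00924). With the clone block 3 rose and 3 fell, against 14.6% (7.62% higher and 6.97% lower). Values elsewhere ran, for example, from 0.04 for Sdha to -0.22 for Sdhd in complex II and 0.39 for Atp5h to -0.27 for Atp5j in complex V. Summed macrophage markers were 729 to 2009 RPKM in Wapl-deleted cells, against 2385 to 3294 RPKM untreated, with none of 10 called. Adipocyte markers summed to 15.3 to 37.0 RPKM, against 51.2 to 57.7 RPKM, with 1 of 5 tested (Pparg) called lower. Sums without overlap were also seen for endothelial (10.8 to 12.3 RPKM, against 15.1 to 15.6 RPKM), striated muscle (35.6 to 46.1 RPKM, against 27.3 to 33.6 RPKM) and fibroblast markers (14670 to 14680 RPKM, against 15590 to 16220 RPKM), with none called. The part of these cell types was not tested.

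Cox6b2 was thus called higher in the Ctcf, the labelled Smc3 and the Wapl comparisons. Its mean was also higher with treatment in both genotypes without a floxed gene. In Cre-ER cells it had 17.0 and 18.65 RPKM with 4-hydroxytamoxifen, against 14.3 and 17.3 RPKM without it. In Ctcf-deleted cells it had 79.7 and 67.7 RPKM, against 31.4 and 41.5 RPKM (1.00, limma adjusted p = 0.0104, and 0.161 or 0.0892 without untreated or Adeno-Cre replicate 1). With Ctcf and Wapl deleted it had 58.5 RPKM, against 26.7 and 43.0 RPKM (0.77, adjusted p = 0.0763 by limma). In wild-type cells with Adeno-Cre it had 44.4 and 43.1 RPKM, against 28.4 and 30.9 RPKM (0.55, adjusted p = 0.212 by limma), and the difference between the Ctcf and wild-type responses was 0.46 (adjusted p = 0.831 by limma).

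**Figure D5:**
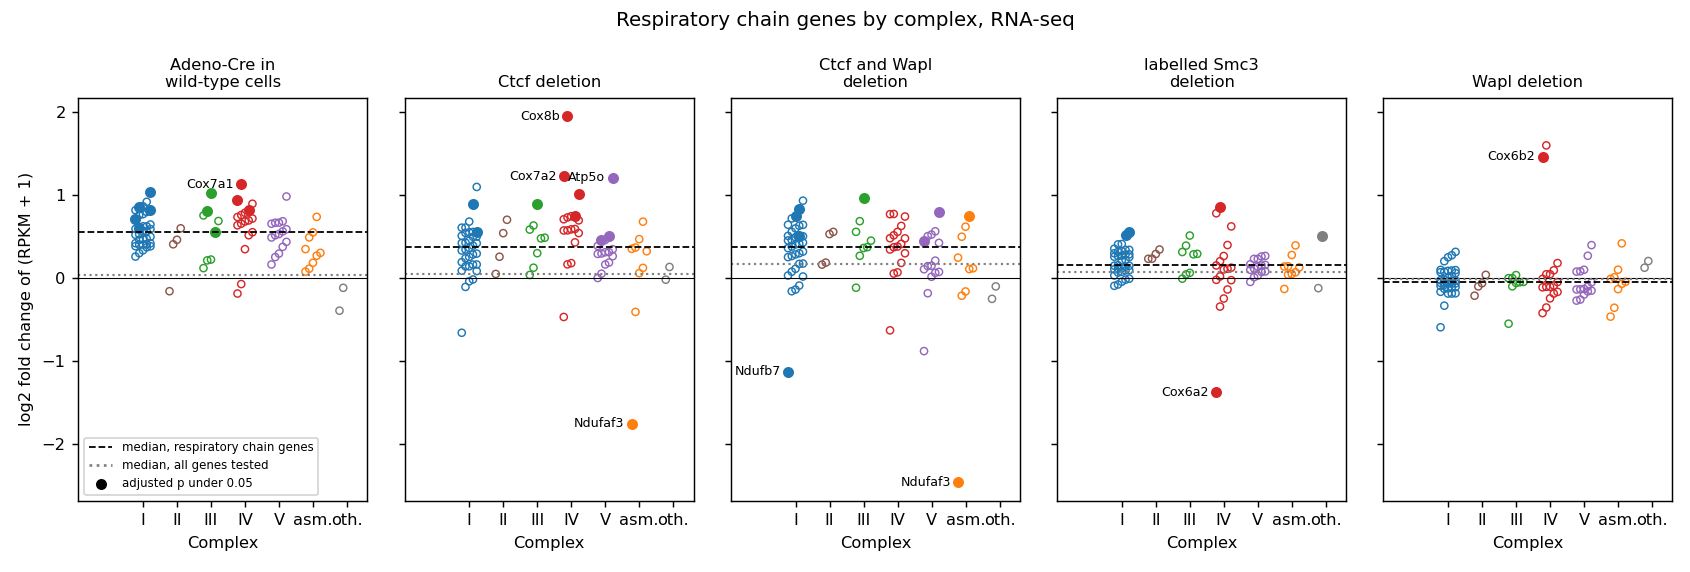
Log2 fold change of RPKM + 1 is plotted for each tested member by complex in 5 comparisons, filled where the limma adjusted p is under 0.05, with dashed lines for the member median and dotted lines for all genes. The dashed line lies at 0.55 with Adeno-Cre alone, 0.37 in both Ctcf comparisons, 0.15 in the labelled Smc3 deletion and -0.05 in the Wapl deletion, and Ndufaf3 is the lowest point wherever Ctcf was deleted.

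Other mitochondrial genes were read beside the chain. Of 75 tested mitochondrial ribosomal protein genes, 9 rose and none fell with Adeno-Cre in wild-type cells (median 0.52), 5 rose and 1 fell in Ctcf-deleted cells (0.35), 7 rose and 1 fell with Ctcf and Wapl deleted (0.36), 1 rose in the labelled Smc3 deletion and none passed in the Wapl deletion. Of all genes tested, 2.7% rose with Adeno-Cre in wild-type cells, 5.04% in Ctcf-deleted cells, 10.5% with both genes deleted and 9.37% in the labelled Smc3 deletion, so the ribosomal protein counts for the Ctcf deletion and for both genes are near that background. Cyc1, the cytochrome c1 of complex III that the prefix rule misses, rose by 0.48 with Adeno-Cre in wild-type cells, 0.51 in Ctcf-deleted cells and 0.67 with both genes deleted. A list of assembly factors and other mitochondrial genes outside the rule had 28 tested. Of these, 5 rose with Adeno-Cre in wild-type cells, 1 (Cox19) in Ctcf-deleted cells and 6 with Ctcf and Wapl deleted. Pet112, which is not an assembly factor of the chain, was among these 6 and was the 1 that fell with Wapl deleted. In the labelled Smc3 deletion 3 of 13 regulators of mitochondrial biogenesis fell (Hif1a, Myc and Pprc1), beside 5.6% of all genes. Of these regulators only Esrra passed in the other 4 comparisons, higher with Ctcf and Wapl deleted.

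A separate table, normalized apart from the main one and named for serum stimulation, held 2 more libraries of clone 3, floxed for Ctcf and Wapl. The labels give both the same Adeno-Cre treatment and rest, yet they differed in Ctcf, at 7.615 RPKM in library 28018, against 3.17 RPKM in library 28014, and in Wapal, at 2.09 RPKM, against 0.902 RPKM. With 1 library a side there is no replicate check and no test. Of 89 members with enough signal, 65 were at least 1.5-fold lower in library 28018 and 3 higher, against 31.8% and 17.1% of 11226 genes. The median log2 ratio was -1.0 for members, -0.22 for all genes and -0.75 for all genes under 1000 bases. Cox4i1 had 403 RPKM in library 28018, against 1206 RPKM in library 28014, and Cox6b2 had 30.0 RPKM, against 105 RPKM. Ndufaf3 went the other way, with 11.5 RPKM in library 28018, against 3.71 RPKM in library 28014, as did Ndufaf4 and Uqcrb. Library 28018 thus had the higher Ctcf and Ndufaf3 values and the lower values of most members, and what set the libraries apart cannot be told from the labels.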

How the data were processed

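The RNA-seq values are RPKM that the authors deposited per library (27 libraries in the main table), and the GRO-seq values are TPM that the authors deposited, in columns that pool libraries or hold 1. The submitters' processing notes name TopHat 1.3.1 and 1.4.1, Bowtie 0.12.5, HTSeq, bedtools and mm9, and their roles are not given in the sources used here, nor is whether TPM is corrected for length. Transcript lengths and reads were recovered from the deposited RPKM, which were whole reads for 18155 of 18155 genes (100%, tolerance 2e-05 reads).

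Log2(RPKM + 1) of 12604 genes was fitted with limma 3.58.1 (R 4.3.3), with a mean per group, 15 residual degrees of freedom and Benjamini-Hochberg adjustment over all genes at 0.05. The p-values of this fit measure the spread between clones within groups, pooled over all groups, so other genotypes enter each comparison. Treated and untreated libraries share clone numbers in the labels, and their deviations correlated at 0.47 to 0.76 (-0.2 in Cre-ER cells), so a second fit that blocks on clone, leaving 7 residual degrees, is given where it changes a call or moves a count. With the block, clone differences are removed and the p-values measure the spread left between pairs. GRO-seq ratios used TPM + 1, a minimum of 1 TPM and a fold of 1.5, without a test. Code was tested on simulated data. Alternatives were the pseudocount, the filter, median-of-ratios scaling, the block, a length trend, fits on the groups compared, leaving out libraries, and, added after seeing the data, voom weights and crossed Cre-ER clone numbers.

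The members and lists were chosen with earlier results of these data known. Named members are those past the threshold (at most 12), the highest and lowest per complex among members averaging at least 5 RPKM, the highest and lowest level per complex, and the tissue isoforms. Ndufaf3, Ndufaf4 and Ndufb7 promoters and the genes near Ndufaf3 were chosen after values were seen. One pathway list is not reported here. ChIP-seq and other data of the series were not used here.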

Additional observations from a re-analysis of the deposited data

Results flagged for a closer look

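The response of Ndufaf3, the complex I assembly factor, differed between Ctcf-deleted and wild-type cells given the same virus. The difference in log2 fold change was -1.832 and was itself tested (limma adjusted p = 0.00127). It lay between -2.01 and -1.65 with any of the 8 libraries left out. Dixon's criterion was applied to 30 groups of 4 Smc3 libraries, those of the members named for that comparison. None held a value apart from the others, but Cox6b2 in treated replicate 3 came near it. It had 153.5 RPKM there, beside 94.9, 93.5 and 103.9 RPKM in the other treated libraries.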

How the results depend on the processing

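In wild-type cells with Adeno-Cre the 11 calls became 62 with the replicate block, 5 with a pseudocount of 0.1, 2 with median-of-ratios rescaling, and 0 with the length trend removed or with only the groups compared. The 11 calls of the Ctcf deletion became 48 with the block, 30 with block and length trend, 7 after rescaling and 0 with only the groups compared. The 5 calls of the labelled Smc3 deletion became 36, 29 with the length trend too, and 2 with only the groups compared. The 1 call of the Wapl deletion became 6 with the block, 8 with block and length trend, 2 after rescaling or with the length trend removed, and 0 with only the groups compared. The 9 calls with Ctcf and Wapl deleted became 25, 14, 4 and 0 under block, block and length trend, rescaling and only the groups compared. The Ctcf response against the wild-type one had 1 call, 7 with the block, 5 with block and length trend, 2 with a pseudocount of 0.1 and 0 with only the groups compared. The Smc3 response against the Cre-ER one had 0 calls, 3 with the block, and 2 with block and length trend or with crossed Cre-ER clone numbers. Shares of all genes are given above for the main fit and the clone block only, so counts under other settings have no background beside them. The cause of these moves was not tested. Leaving out 1 library gave 0 to 10, 2 to 13, 3 to 7, 0 to 1 and 4 to 10 calls in the wild-type, Ctcf, Smc3, Wapl, and Ctcf and Wapl comparisons, 0 in Cre-ER cells and in the Smc3 difference, and 1 to 2 in the Ctcf difference (2 without untreated wild-type replicate 2). The Wapl call was lost without treated replicate 1. Of the 38 calls of single genes none reversed, and 37 kept their side of the threshold with the block and 37 with voom weights, while 36 lost it with only the groups compared. Fits on only the groups compared rest on 1 or 2 libraries a group, and on 4 for Smc3. The counts of GRO-seq ratios kept within 1.5 times. Depth limits the calls of Cox8b and Cox7a1, which have few reads. Cox7a1 had 64 and 65 reads in wild-type cells with Adeno-Cre, against 30 and 17 reads without it.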
